A study of Rattus norvegicus with 18 samples.

Results

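Photobiomodulation and saffron are both given before bright light to protect rat photoreceptors, and the retinas that received light after one or the other were compared here gene by gene. PBMLD denotes the 3 arrays of retinas treated with 670 nm red light (PBM) for 3 min a day over 5 days before 24 h of light at 1000 lux. SafLD denotes the 3 arrays of retinas from rats given dietary saffron, 1 mg/kg/day, over 3 weeks before the same light. These are 6 of the 18 arrays of the series, chosen by their labels alone. The other groups, with 3 arrays each, were untreated control, PBM without light, saffron without light, and light alone (LD). All were Sprague Dawley rats aged 80 to 120 days, reared in cyclic light at 5 lux and routinely fed the vegetable matrix in which saffron was given. The fluence of the red light is 10 J/cm2 in the labels, while the text of the study states a lower one, and for LD the labels name both 100 and 1000 lux. Each array held RNA of 1 retina, and each retina of a group came from a different animal. The PBM animals were accustomed to handling and held in a towel under the lamp, which the protocols of the other groups do not describe, so handling and red light cannot be told apart.

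Bright light injures rods of albino animals, and the retina answers within hours. Dying photoreceptors and their neighbours release signals to which Muller cells, the radial glia of the retina, respond by making Gfap, ceruloplasmin and growth factors. Ligands of the gp130 receptor family, such as leukaemia inhibitory factor, act through Stat3 and are held in check by Socs3. Chemokines such as Ccl2 draw monocytes, and interferon-response genes and metallothioneins are raised as well. Red light of this kind is thought to act on cytochrome c oxidase of the mitochondrial respiratory chain, and saffron carries the carotenoid antioxidants crocin and crocetin.

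The measurements are RMA values on the log2 scale for 29214 probe sets, called entities as the study does. A unit of 1 is a 2-fold difference, and differences are given as PBMLD minus SafLD with their standard error. An entity was called when its limma p, adjusted over all entities by the Benjamini-Hochberg method, was below 0.05 and its fold difference was above 2. Array medians ran from 6.12 to 6.19. Expressed photoreceptor genes were bright on every array, as in a retina: recoverin (Rcvrn), a calcium sensor of photoreceptors, lay between 12.18 and 12.55 on the 6 arrays. The arrays of PBMLD varied more among themselves than those of SafLD: the median SD per entity was 0.21 in PBMLD and 0.16 in SafLD, and 719, 925 and 302 entities lay over 1 unit from the mean of the other 2 arrays in PBMLD 1, 2 and 3, against 264, 122 and 171 in SafLD 1, 2 and 3. PBMLD 1 stood apart in the genes most raised by light. Results are therefore also given without it, and in bulk retina fewer cells of a type and less RNA per cell cannot be told apart.

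No entity was called between PBMLD and SafLD, in either direction. The lowest limma adjusted p over the 29214 entities was 0.308, and by unadjusted p below 0.05 there were 1305 entities lower in PBMLD (4.47%) and 1127 higher (3.86%). For 94.4% of entities the 95% confidence interval of the difference lay within 1 unit on either side of 0, which leaves a difference of more than 2-fold outside it. The median standard error was 0.16. With 3 arrays against 3 an exact permutation test of 1 gene cannot give a two-sided p below 0.1. What follows describes the genes and groups with the clearest separations. For each gene the order of the arrays is PBMLD 1, 2 and 3, then SafLD 1, 2 and 3, and adjusted p-values are those of limma.

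Genes that bright light raises were mostly lower in PBMLD than in SafLD retinas. They were chosen on LD against control, and neither of those groups enters the difference between the pretreatments. Light alone had raised 136 entities (0.466% of all) and lowered 19 (0.065%). Over the 136 raised entities the median difference was -0.47, against 0.01 over all entities, and 129 of the 136 were lower in PBMLD, where 47.2% of all entities were. By unadjusted p below 0.05, 46 of them (33.8%) were lower in PBMLD and 0 higher, and 38 (27.9%) did not overlap between the groups with PBMLD lower, where 5.23% of all entities did so. The lowest adjusted p among them was 0.308. All these entities were measured on the same 6 arrays, so the counts are not of independent measurements. Taken by array, their median above the control mean overlapped between the groups. It was 0.52, 1.31 and 1.04 in PBMLD 1, 2 and 3 and 1.16, 1.45 and 1.54 in SafLD 1, 2 and 3. Over the 19 lowered entities the median difference was 0.30, 14 were higher in PBMLD (52.8% of all entities were), and 8 did not overlap with PBMLD higher, where 6.79% of all entities did so. The array PBMLD 1 carried much of the first shift. Without it the median over the same 136 entities was -0.25, with 108 lower in PBMLD and 27 lower at unadjusted p. Without PBMLD 2 it was -0.59 with 73 lower at unadjusted p, and without SafLD 3 it was -0.35 with 21, the lowest such count over the 6 arrays left out. Over the same 19 lowered entities it was 0.13 without PBMLD 1 and 0.42 without PBMLD 2.

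**Figure D1:**
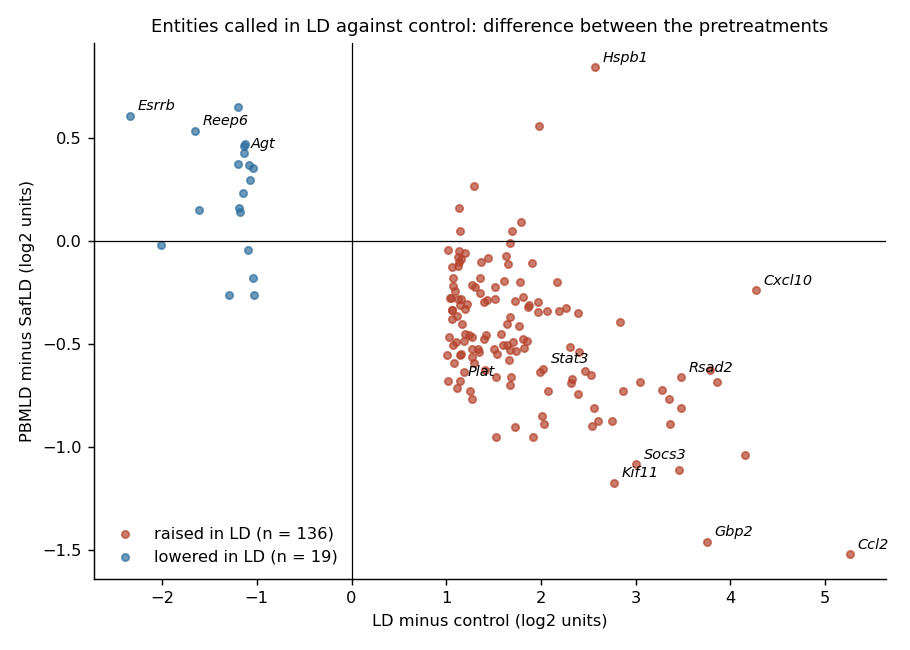
Each point is an entity called in LD against control, with its LD minus control difference on the x axis and its PBMLD minus SafLD difference on the y axis, both in log2 units (n = 136 raised in LD, n = 19 lowered in LD). Most raised entities lie below 0 and most lowered ones above it; Ccl2 (-1.52) and Gbp2 (-1.46) lie lowest, and Hspb1 (0.85) lies highest.

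The chemokines showed how far the retinas of PBMLD differed from one another. Ccl2, which attracts monocytes, lay at 5.34, 10.56 and 8.10 in PBMLD and at 9.23, 9.06 and 10.27 in SafLD, with a control mean of 5.22. PBMLD 1 was thus at the level of untreated retina while PBMLD 2 was above every SafLD array. Its difference was -1.52 ± 0.84 (adjusted p = 0.667) and became -0.19 without PBMLD 1. Ccl3, another monocyte chemokine, had the same order, at 4.77, 8.28 and 6.70 against 7.38, 7.61 and 7.88. Ccl4, its close relative, was the list member lower in PBMLD without overlap, at 5.19, 6.30 and 5.65 against 6.65, 6.59 and 6.60. The SafLD arrays were nearly equal in Ccl4 and all 3 PBMLD arrays lay below them (difference -0.90 ± 0.26, adjusted p = 0.461). Il12a, a subunit of interleukin 12, lay the other way without overlap, at 5.30, 5.94 and 5.71 against 4.90, 5.01 and 5.24 (0.60 ± 0.18, adjusted p = 0.471). Of the 24 genes of chemokines and cytokines measured, 19 were lower in PBMLD and 0 were called. Overlap was absent in 1 (4.17%) with PBMLD lower and in 1 (4.17%) with PBMLD higher. These shares were below the 5.23% and 6.79% of all entities. The median of the list was -0.24, and without PBMLD 1 it was 0.00, with 12 genes lower and 12 higher.

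The interferon response gave a similar picture. Gbp2, a guanylate-binding protein induced by interferon, had the largest difference of the list, at 5.39, 7.89 and 7.51 in PBMLD and 8.01, 8.38 and 8.77 in SafLD. All PBMLD arrays lay below all SafLD arrays, and the lowest again was PBMLD 1, near the control mean of 5.56 (difference -1.46 ± 0.58, 2.74-fold higher in SafLD, adjusted p = 0.562, and -0.69 without PBMLD 1). Irf9, the DNA-binding part of the interferon-stimulated factor ISGF3, was at 8.06, 8.54 and 8.71 against 8.82, 9.27 and 9.22. Tap1, the peptide transporter of antigen presentation, was at 6.01, 6.44 and 6.44 against 6.88, 6.80 and 6.99. Both separated the groups without overlap, by -0.67 ± 0.23 (adjusted p = 0.512) and -0.59 ± 0.30 (adjusted p = 0.637). Others of the list did not separate: Cxcl10, an interferon-induced chemokine, ranged from 4.71 to 9.02 within PBMLD alone. Of 28 interferon-response genes 4 (14.3%) did not overlap, all with PBMLD lower, where 5.23% of all entities did so. Among the 28, 25 were lower in PBMLD and the median was -0.27. Without PBMLD 1, 12 were lower and 16 higher, with a median of 0.02. The direction of this list therefore rested on 1 array.

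Gbp2 and Tap1 were the genes among the light-raised ones lower in PBMLD without overlap whose promoter held the core of an interferon-stimulated response element, here searched on both strands as GAAA, any 2 bases and GAAA again. A promoter was the stretch from 250 bases before to 50 bases after the start of the gene in RefSeq (GRCr8). It is shown 5′ to 3′ on the strand of the gene, for Gbp2 chr2:234005477-234005776 (plus strand) and for Tap1 chr20:4668494-4668793 (minus strand), and capitals mark the matches, which in both lie on the opposite strand.
Gbp2: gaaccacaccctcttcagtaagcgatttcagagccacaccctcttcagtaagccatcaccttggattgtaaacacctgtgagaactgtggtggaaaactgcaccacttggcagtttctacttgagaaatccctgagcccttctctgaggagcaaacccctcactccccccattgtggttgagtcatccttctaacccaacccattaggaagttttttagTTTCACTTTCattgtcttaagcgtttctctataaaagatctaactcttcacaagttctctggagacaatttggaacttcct
Tap1: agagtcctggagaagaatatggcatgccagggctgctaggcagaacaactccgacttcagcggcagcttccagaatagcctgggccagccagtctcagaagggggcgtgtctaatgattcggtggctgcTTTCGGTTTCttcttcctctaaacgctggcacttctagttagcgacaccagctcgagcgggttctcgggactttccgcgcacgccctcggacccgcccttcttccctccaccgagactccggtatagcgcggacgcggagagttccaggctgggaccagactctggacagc
Of the 114 light-raised genes 92 had a promoter in the table, and 10 of these (10.9%) held the motif, against 3.92% of all 33469 promoters. Among the 29 light-raised genes that were lower in PBMLD without overlap, 22 had a promoter and 2 (9.09%) held it. The STAT motif, TTC and GAA with any 3 bases between, stood in 4 of those 22 (18.2%), in 13 of the 92 (14.1%) and in 8.87% of all promoters. A match describes the sequence and is not a measured site.

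In gp130 signalling a receptor, the transcription factor and the inhibitor lay lower in PBMLD. Osmr, the receptor for oncostatin M that pairs with gp130, was at 5.04, 6.78 and 6.43 against 6.99, 6.94 and 6.94. Stat3, which carries the signal to the nucleus, lay between 9.87 and 10.28 in PBMLD and between 10.29 and 10.92 in SafLD. Socs3, its feedback inhibitor, was at 6.34, 7.71 and 7.32 against 7.80, 8.21 and 8.60. In each of these genes all 3 PBMLD arrays lay below all 3 SafLD arrays, narrowly so in Stat3. They were the only 3 of the 18 genes of the list without overlap (16.7%), where 5.23% of all entities had PBMLD lower without overlap. The differences were -0.87 ± 0.38 for Osmr (adjusted p = 0.570), -0.62 ± 0.18 for Stat3 (adjusted p = 0.461) and -1.08 ± 0.34 for Socs3 (adjusted p = 0.487). Stat3 was little changed without PBMLD 1, at -0.59, while Osmr went to -0.35 and Socs3 to -0.69. Lif, the ligand, followed the chemokines instead, at 5.32, 8.78 and 6.59 against 7.44, 7.47 and 8.48. Of the 18 genes of this list 15 were lower in PBMLD (median -0.20, and -0.07 without PBMLD 1).

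Reactive glia and the NF-kB pathway were described by 2 further lists. Gfap, the intermediate filament of reactive Muller cells, was at 8.54, 9.05 and 9.43 against 9.38, 9.85 and 9.96, with a control mean of 6.62. It was well above control on every array, and the groups overlapped (difference -0.72 ± 0.27, adjusted p = 0.545). Cp, the iron-oxidising ceruloplasmin, did not overlap, at 9.83, 10.26 and 10.31 against 11.03, 10.73 and 10.95. Timp1, an inhibitor of metalloproteinases, and Lcn2, an iron-siderophore carrier, spread over more than 3 units within PBMLD (6.70 to 10.22 and 7.49 to 11.27), with PBMLD 2 above all SafLD arrays. Of 19 genes of glial reactivity 18 were lower in PBMLD, and the median was -0.41 (-0.16 without PBMLD 1, with 13 lower). Tnip2, which restrains NF-kB activation, was at 7.89, 7.96 and 7.61 against 8.25, 8.63 and 8.68, and its difference of -0.70 ± 0.18 (adjusted p = 0.424) was -0.73 without PBMLD 1. Icam1, an adhesion molecule for leukocytes, overlapped, at 6.62, 7.80 and 7.33 against 7.58, 7.93 and 8.46. Of 15 NF-kB genes 13 were lower in PBMLD (median -0.34, and -0.10 without PBMLD 1). Without PBMLD 2 the medians were larger in size, at -0.53 for NF-kB, -0.55 for glial reactivity, -0.35 for gp130 signalling, -0.51 for the interferon response and -0.49 for chemokines and cytokines. Without SafLD 3 that of gp130 signalling was -0.13.

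The median of immediate early genes lay between those of the chemokine and gp130 lists, and the medians of amino acid response genes were smaller in size. Some members of these lists depended little on PBMLD 1. Npas4, a transcription factor induced by neuronal activity, was at 6.88, 7.21 and 6.75 in PBMLD, near the control mean of 6.56, and at 7.59, 7.72 and 8.19 in SafLD. Its difference of -0.89 ± 0.34 (adjusted p = 0.557) was -0.85 without PBMLD 1. Junb and Fos, parts of the AP-1 factor, overlapped between groups, at -0.85 ± 0.29 and -0.73 ± 0.24. Of 23 immediate early genes 18 were lower in PBMLD, with a median of -0.23 (-0.11 without PBMLD 1 and -0.37 without PBMLD 2). Mthfd2, a mitochondrial enzyme of folate metabolism that the transcription factor ATF4 induces, was at 8.75, 8.87 and 8.45 against 9.22, 9.13 and 9.30, with a control mean of 7.12. It lay above control in both groups and lower in each PBMLD array than in each SafLD array (difference -0.53 ± 0.14, adjusted p = 0.424). Slc7a11, the cystine transporter that feeds glutathione synthesis, differed by -0.77 ± 0.30. Of 30 ATF4 targets 22 were lower in PBMLD (median -0.18, -0.19 without PBMLD 1 and -0.11 without PBMLD 2), and of 18 aminoacyl-tRNA synthetases, which load transfer RNAs, 15 were lower (median -0.17, and -0.24 without PBMLD 1). Without PBMLD 2 the median of the synthetases was -0.02.

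**Figure D2:**
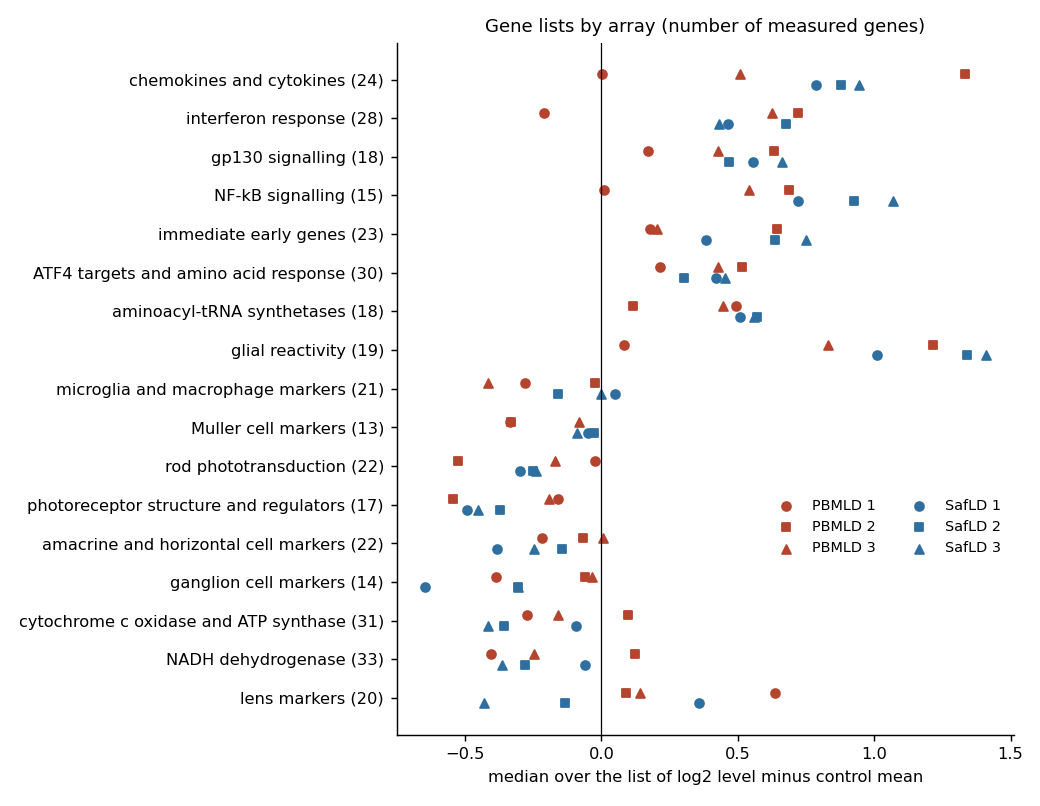
The x axis gives, for each gene list and array, the median over the list of the log2 level minus the control mean, in log2 units, with the number of measured genes after each name; colours mark the groups and shapes the arrays. In chemokines, interferon response and NF-kB signalling PBMLD 1 lies at 0.00, -0.21 and 0.01, below the other 5 arrays.

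Several genes of other kinds departed from the lists. Hspb1, a small heat shock protein raised by light from a control mean of 5.82 to 8.39 in LD, was higher in PBMLD, at 8.10, 7.21 and 6.62 against 6.62, 6.30 and 6.47, with PBMLD 3 only just above SafLD 1 (difference 0.85 ± 0.49, adjusted p = 0.681, and 0.45 without PBMLD 1). Hspa5, the chaperone of the endoplasmic reticulum, lay the other way, at 11.38, 10.83 and 11.26 against 11.54, 11.60 and 11.70. Kif11, a mitotic kinesin that light raised by 2.77 units, was at 6.39, 7.64 and 6.91 against 7.51, 8.42 and 8.52 (difference -1.17 ± 0.33, adjusted p = 0.442). Plat, tissue plasminogen activator, was at 8.43, 8.51 and 8.80 against 9.05, 9.20 and 9.53, a separation of -0.68 ± 0.17 (adjusted p = 0.421) in which the PBMLD arrays were close together. Casp4, an inflammatory caspase, and Aifm1, a mitochondrial flavoprotein that can act in cell death, were lower in PBMLD without overlap, at -0.64 ± 0.22 and -0.43 ± 0.13. Of 25 genes of apoptosis and DNA damage 18 were lower in PBMLD, with a median of only -0.07. Overlap was absent in 2 (8%) with PBMLD lower and in 1 (4%) with PBMLD higher, against 5.23% and 6.79% of all entities. The lists of antioxidant defence (32 genes, 17 lower, median -0.03), heat shock (18 genes, 12 lower, median -0.12), complement (12 genes, 10 lower, median -0.06), matrix and proteases (27 genes, 16 lower, median -0.07), fatty acid metabolism (21 genes, 11 lower, median 0.00), sterol synthesis (15 genes, 6 lower, median 0.03) and the circadian clock (15 genes, 6 lower, median 0.00) had medians closer to that of all entities. Over the 6 arrays left out in turn these medians were unsteady in size or sign. They ran from -0.15 to 0.09 for antioxidant defence (lowest without PBMLD 2, highest without PBMLD 1), from -0.13 to 0.03 for matrix and proteases (highest without PBMLD 1), and from -0.05 to 0.11 for the clock (lowest without SafLD 1, highest without PBMLD 2). For heat shock the median was -0.04 without PBMLD 2, and for complement -0.17 without PBMLD 2 and -0.0019 without PBMLD 1, with 6 of 12 lower. The medians ran from -0.11 to -0.03 for apoptosis, from -0.06 to 0.01 for fatty acid metabolism and from 0.02 to 0.07 for sterol synthesis.

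Among lists of retinal neurons, those of photoreceptor structure, ganglion cells, and amacrine and horizontal cells held more genes higher in PBMLD than the 52.8% of all entities, whereas rod phototransduction, cone and bipolar lists lay below or near that share. Reep6, an endoplasmic reticulum protein of rods, was at 11.25, 10.95 and 11.24 in PBMLD and 10.63, 10.65 and 10.56 in SafLD, with 12.06 in control and 10.40 in LD. It was below control in every light-exposed group and nearer to it in PBMLD (difference 0.54 ± 0.24, adjusted p = 0.577). Susd3, listed here with photoreceptor genes, was at 8.56, 8.50 and 8.55 against 8.18, 8.08 and 8.22, and both groups were tight around their means. Esrrb, a nuclear receptor of rods, overlapped, at 9.26, 8.25 and 8.36 against 7.55, 7.92 and 8.56. Of 17 genes of photoreceptor structure 13 were higher in PBMLD (median 0.17, 0.12 without PBMLD 1 and 0.30 without PBMLD 2). Their median of PBM minus saffron without light was 0.14, in the same direction. The phototransduction genes of rods did not share the direction in light. Of 22 genes 10 were higher and 12 lower, with a median of -0.01 (-0.08 without PBMLD 1 and 0.14 without PBMLD 2). Among these 22, Rcvrn, described above as bright, was higher in PBMLD without overlap (difference 0.26 ± 0.12, adjusted p = 0.573). Of 12 cone genes 7 were higher and 5 lower, with a median of 0.02 (-0.03 without SafLD 3 and 0.10 without SafLD 1).

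Ganglion cell markers had the largest median among these lists, although no difference between lists was tested. Thy1, a surface protein of ganglion cells, was at 10.30, 10.34 and 10.90 against 9.92, 10.11 and 10.08. PBMLD was above SafLD throughout, with a control mean of 10.85 (difference 0.48 ± 0.19, adjusted p = 0.562). Nefm, a neurofilament subunit, overlapped, at 8.63, 9.56 and 8.94 against 8.20, 8.72 and 8.73. Of 14 ganglion cell markers 13 were higher in PBMLD, with a median of 0.28 (0.36 without PBMLD 1, with 11 higher, and 0.19 without SafLD 1, with 12 higher). Taken by array, their median relative to the control mean overlapped between the groups. It was -0.38, -0.06 and -0.04 in PBMLD and -0.65, -0.31 and -0.31 in SafLD. Without light their median of PBM minus saffron was 0.17. Sst, the somatostatin precursor of amacrine cells, was at 6.62, 7.01 and 6.83 against 6.48, 6.19 and 5.93, and Pvalb, the calcium buffer parvalbumin, at 9.00, 9.58 and 9.34 against 8.97, 8.80 and 8.86. SafLD was the group that lay away from control in Sst, whose control mean was 6.84 (difference 0.62 ± 0.16, adjusted p = 0.424). Calb1, calbindin of horizontal cells, went the other way, at 7.40, 8.50 and 7.48 against 8.66, 8.23 and 8.15. Of 22 amacrine and horizontal cell markers 16 were higher in PBMLD (median 0.13, and 0.07 without SafLD 1). Of 14 bipolar cell markers 8 were, with a median of 0.08 that turned to -0.03 without PBMLD 1 and to -0.04 without SafLD 1, with 5 higher in each case. Pcp2 of rod bipolar cells was at 10.53, 10.99 and 10.61 against 10.52, 10.25 and 10.27.

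Most subunits of the respiratory chain were slightly higher in PBMLD, a direction that did not hold without some of the arrays. Cox4i2, an isoform of subunit 4 of cytochrome c oxidase, was at 7.59, 8.90 and 8.32 against 7.83, 7.50 and 7.53. The groups overlapped because PBMLD 1 was below SafLD 1 (difference 0.65 ± 0.22, adjusted p = 0.516, and 0.99 without PBMLD 1). Of 31 genes of cytochrome c oxidase and ATP synthase 24 were higher in PBMLD with a median of 0.13, and of 33 genes of NADH dehydrogenase 28 were, with a median of 0.10. Ndufa10 and Ndufs7, subunits of that enzyme, did not overlap, with differences of 0.49 ± 0.21 and 0.30 ± 0.11. They were the only 2 of the 33 to do so (6.06%), near the 6.79% of all entities with PBMLD higher. Of 71 cytosolic ribosomal protein genes 46 were higher, with a median of 0.10. Without PBMLD 2 these medians were 0.00, -0.05 and -0.13, with 15, 10 and 17 genes higher. Without SafLD 3 they were 0.08, -0.01 and 0.01, with 23, 15 and 37 higher, and without SafLD 2 that of ribosomal proteins was 0.01. Medians of these lists above control differed within each group as much as between them: for cytochrome c oxidase and ATP synthase they were -0.27, 0.10 and -0.16 in PBMLD and -0.09, -0.36 and -0.41 in SafLD, and for ribosomal proteins -0.41, 0.28 and -0.18 against 0.10, -0.30 and -0.37.

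Markers of glia, microglia and vessels gave no called gene. Microglia and macrophage markers were lower in PBMLD in 18 of 21 genes, with a median of -0.19 (-0.15 without PBMLD 1, with 13 lower). Without light this list lay in the same direction, with a median of PBM minus saffron of -0.26. Ctss, a lysosomal protease of microglia, was at 7.65, 7.63 and 6.73 against 8.23, 7.75 and 7.66, and C1qc, a chain of complement C1q, at 6.03, 6.25 and 6.24 against 6.68, 6.48 and 6.83. Both separated the groups without overlap, Ctss only narrowly. Of the 21 genes 4 (19.0%) did so, all with PBMLD lower, where 5.23% of all entities did. Resting Muller cell markers were lower in 9 of 13 genes (median -0.10, and 0.03 without PBMLD 2), among them Aldh1a1, a retinaldehyde dehydrogenase, which reached from 9.40 to 10.92 in PBMLD. Endothelial and pericyte markers were higher in 10 of 18 genes (median 0.05, and -0.05 without PBMLD 3), and blood cell markers in 6 of 11 (median 0.04, and 0.20 without SafLD 1, with 10 higher).

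Tissue beside the retina differed between arrays of a group. Lens genes were highest in PBMLD 1: Bfsp1, a filament protein of lens fibres, was at 9.06, 6.27 and 6.35 against 5.91, 5.89 and 5.62. The mean level of the 20 lens genes measured was 9.80, 8.88 and 8.97 in PBMLD and 9.28, 8.72 and 8.52 in SafLD, and 17 of the 20 were higher in PBMLD, with a median of 0.31 (0.10 without PBMLD 1, 0.07 without SafLD 3 and 0.53 without SafLD 1). Tyrp1, a melanosome enzyme used as a marker of pigment epithelium, was at 4.16, 7.30 and 7.17 against 9.86, 6.74 and 6.80. PBMLD 1 was lowest and SafLD 1 highest, and the 12 pigment epithelium markers had a median of 0.03, with 7 higher in PBMLD (-0.17 without PBMLD 2 and 0.21 without SafLD 1). The part of either tissue in the differences was not tested.

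The largest differences among named genes came from the same array. By unadjusted p below 0.05 and a fold above 2, 106 entities were lower in PBMLD (0.363%) and 4 higher (0.0137%), and 20 of the lower ones and 1 of the higher carried a single gene symbol. The genes named next were chosen after their values were seen. Slc6a13, a transporter of GABA and taurine, was at 4.91, 9.08 and 9.67 against 10.26, 9.78 and 9.50. Enpp2, which makes lysophosphatidic acid, was at 5.43, 9.43 and 9.19 against 10.81, 9.67 and 9.37. Slc26a4, the anion exchanger pendrin, was at 7.08, 9.82 and 10.26 against 11.15, 10.60 and 10.41, and Optc, opticin of the vitreous, at 5.73, 9.06 and 9.84 against 10.08, 9.91 and 9.62. In all of these PBMLD 1 lay more than 2 units below the other 5 arrays, while PBMLD 2 and 3 lay near or just below SafLD. Their differences of -1.96, -1.93, -1.67 and -1.66 became -0.47, -0.64, -0.68 and -0.42 without PBMLD 1. Of the 110 entities, 78 belonged to the 1618 lowest-numbered probe sets, which no table used here identifies.

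**Figure D3:**
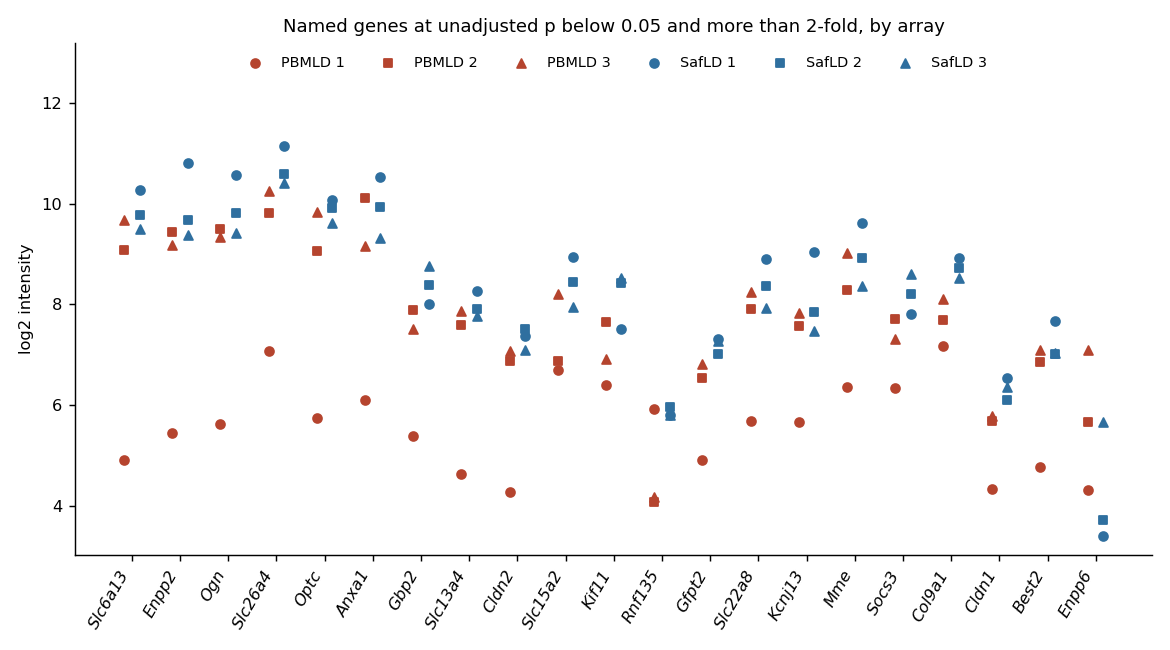
The y axis gives the log2 intensity on each PBMLD and SafLD array of the 21 named genes with unadjusted p below 0.05 and a fold above 2, in order of their difference; colours mark groups and shapes arrays. PBMLD 1 lies lowest in all but 1 of the 20 genes that were lower in PBMLD, such as Slc6a13 (4.91) and Enpp2 (5.43). In some of the 20, among them Col9a1, Socs3 and Slc26a4, all PBMLD arrays lie below all SafLD arrays.

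The named genes that best separated the groups were mostly not those with the largest differences, and only Col9a1 was in both sets. They were taken by the smallest p among genes with a mean level of at least 5 whose groups did not overlap, 10 in each direction, and overlap was absent in 5.95% (PBMLD lower) and 7.66% (PBMLD higher) of genes of at least that level. Among the 10 lower in PBMLD, Crot, a peroxisomal carnitine octanoyltransferase, was at 10.50, 10.50 and 10.42 against 10.96, 11.10 and 11.30, with 9.86 in control and 10.83 in LD. Its PBMLD arrays lay within 0.1 of each other, and the difference of -0.65 ± 0.14 (1.57-fold higher in SafLD, adjusted p = 0.328) was -0.66 without PBMLD 1. Echdc1, ethylmalonyl-CoA decarboxylase, was at 7.22, 7.57 and 7.47 against 8.25, 8.06 and 7.94, and Eif1a, a translation initiation factor, at 9.80, 9.94 and 9.68 against 10.36, 10.42 and 10.42. Control and LD means of Echdc1, 8.04 and 7.95, lay with SafLD. Tspan12, a tetraspanin of norrin signalling in retinal vessels, was at 7.96, 7.96 and 8.43 against 8.98, 8.98 and 8.69, on either side of the control mean of 8.54. Itgb1, the beta-1 integrin, was at 8.75, 9.10 and 9.41 against 10.02, 9.78 and 9.89, with PBMLD about the control mean of 9.05 and SafLD about the LD mean of 9.81. Col9a1, a chain of the type IX collagen found in vitreous and cartilage, had the largest difference of the 10, at 7.17, 7.70 and 8.10 against 8.92, 8.72 and 8.52 (-1.06 ± 0.22, 2.09-fold higher in SafLD, adjusted p = 0.328). The remaining ones were Zfp24, a zinc finger transcription factor, Hbp1, a transcriptional repressor, Tmem38b, a cation channel of the endoplasmic reticulum, and Jrkl, with differences of -0.79, -0.66, -0.53 and -0.70.

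The 10 higher in PBMLD included a dopamine receptor and a potassium channel. Drd2, the D2 dopamine receptor, was at 8.39, 8.82 and 8.70 against 7.67, 8.10 and 8.08, with 8.63 in control. Kcna2, a voltage-gated potassium channel, was at 8.78, 9.01 and 9.11 against 8.09, 8.42 and 8.50, and Cacng7, an auxiliary subunit of AMPA receptors, at 9.82, 10.34 and 10.04 against 9.20, 9.49 and 9.48. In Drd2 and Cacng7 PBMLD was at the control level and SafLD below it (differences 0.69 ± 0.17 and 0.67 ± 0.18, adjusted p = 0.421 and 0.424). Cdnf, a neurotrophic factor first described for dopamine neurons, had the largest difference, at 6.44, 6.49 and 6.78 against 5.63, 5.39 and 5.90 (0.93 ± 0.25, 1.91-fold higher in PBMLD, adjusted p = 0.424). Nme3, a nucleoside diphosphate kinase, had the smallest p, at 9.30, 9.72 and 9.60 against 9.13, 8.99 and 9.02 (0.49 ± 0.11, adjusted p = 0.361). Peli2, a ubiquitin ligase of Toll-like receptor signalling, Chst12, a chondroitin sulfotransferase, Tekt5, a tektin of sperm flagella, Erbb3, a neuregulin receptor, and B4galnt1, which makes complex gangliosides, differed by 0.64, 0.60, 0.54, 0.45 and 0.43.

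**Figure D4:**
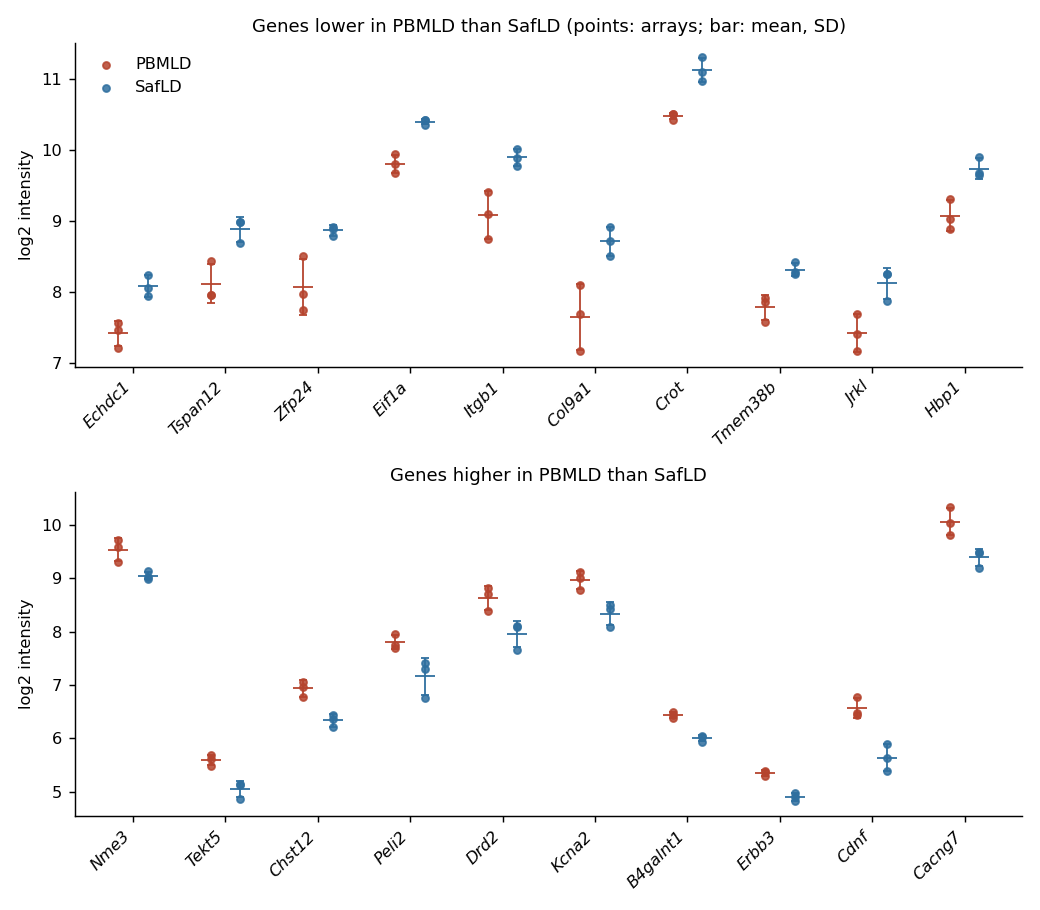
The y axis gives the log2 intensity of the 10 genes of each direction with the smallest p among those that did not overlap; each point is an array (n = 3 per group), and the horizontal mark and bar give the mean and SD. PBMLD lies below SafLD in all genes of the upper panel, such as Crot, and above it in all genes of the lower panel, such as Cdnf.

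The genes that the study also measured by RT-PCR had been chosen with these samples in view. The assay list of the study holds Smarcd1 and its results text names Smarcad1, so both were counted here. Of the 14 genes thus taken 9 were lower and 5 higher in PBMLD, and 0 were called. In 6 the groups did not overlap, 3 in each direction (5.23% of all entities did so with PBMLD lower and 6.79% with PBMLD higher). Besides Crot, Stat3 and Socs3, these were Smarcd1, a subunit of the SWI/SNF chromatin remodelling complex, Agt, angiotensinogen, and Optn, optineurin, all higher in PBMLD. Smarcd1 was at 10.74, 10.66 and 10.71 against 9.99, 10.24 and 10.13, between the control mean of 11.22 and SafLD (difference 0.58 ± 0.16, adjusted p = 0.435). Agt was at 7.28, 6.98 and 6.95 against 6.70, 6.79 and 6.45 (0.43 ± 0.15, adjusted p = 0.523). Optn differed by only 0.14 ± 0.12. The others overlapped: Hmox1, heme oxygenase, was at 5.33, 6.52 and 5.66 against 5.68, 6.62 and 6.81, Edn2, the endothelin of injured photoreceptors, at 6.41, 7.05 and 6.24 against 6.84, 7.33 and 6.84, and Fgf2, a growth factor that protects photoreceptors, at 6.91, 8.30 and 7.73 against 7.06, 8.41 and 8.36. Gpx3, glutathione peroxidase, and Fabp5, a fatty acid carrier, had differences of 0.36 ± 0.20 and 0.42 ± 0.48. Smarcad1, which has no assay in that list and whose name is easily taken for that of Smarcd1, lay at -0.20 ± 0.14.

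Genes that the study had listed for a single pretreatment or for both were also read, and since those lists were made on these same samples their direction is no independent evidence. Each list for a single pretreatment mixes genes raised and genes lowered against control, so its counts and median depend on how many of each it holds. Of 33 measured genes listed for saffron before light alone, 20 were lower in PBMLD, and 11 were lower and 8 higher at unadjusted p, where 4.47% and 3.86% of all entities were. Without PBMLD 2 these were 7 and 4, and the median went from -0.35 to -0.19, and to -0.18 without SafLD 2. Of 7 listed for PBM before light alone, 4 were lower, and of 33 listed as lowered by both pretreatments, 29 were lower in PBMLD, with a median of -0.28 (-0.10 without PBMLD 1).

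A further comparison asked whether the difference between the pretreatments in light departed from that without light. It set PBMLD minus SafLD against PBM minus saffron in the same fit, and 37 of the 29214 entities were called (0.127%), 35 higher (0.12%) and 2 lower (0.00685%). They were mostly entities that differed only without light: 27 belonged to a run of 54 consecutively numbered unnamed probe sets, and these 27 hold 17 distinct sets of values. Over the run the median difference was 0.07 in light (range -0.47 to 0.24) and -1.36 without it, and 45 of the 54 were called between PBM and saffron without light (0.322% of all entities were). With light, 0 of the 54 reached an unadjusted p below 0.05. In each of the 27 called, the means of PBM, PBMLD and SafLD lay below those of control, saffron and LD. The largest group of identical rows among them held 10 probe sets. Its means were 11.46 in PBM, 11.29 in PBMLD and 11.22 in SafLD, against 12.62 in control, 12.80 in saffron and 12.68 in LD. Some of the probe sets of the run hold identical values, so they are not independent measurements.

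The named genes called were Ldb2, Defb10 and Gpat3. Ldb2, a LIM-domain binding cofactor, was at 8.25, 8.30 and 8.32 in PBMLD and 8.11, 8.06 and 8.12 in SafLD, and at 7.61, 7.53 and 7.27 in PBM and 8.41, 8.62 and 8.29 in saffron. PBM retinas without light were the low group, and the difference was 0.19 ± 0.11 in light and -0.97 ± 0.11 without light (light dependence 1.16 ± 0.16, adjusted p = 0.0037). Defb10, a beta-defensin, was dim at 4.11, 4.10 and 4.30 in PBMLD, 4.48, 4.87 and 4.62 in SafLD, 4.60, 4.47 and 4.78 in PBM and 4.02, 4.01 and 3.97 in saffron. Its order turned between the conditions, from 0.62 ± 0.13 without light to -0.48 ± 0.13 in light (light dependence -1.10 ± 0.18, adjusted p = 0.011). Gpat3, a glycerol-3-phosphate acyltransferase, turned in the same way, at 5.02, 4.76 and 4.70 in PBMLD, 5.19, 5.09 and 5.28 in SafLD, 5.51, 5.20 and 5.28 in PBM and 4.60, 4.60 and 4.68 in saffron (light dependence -1.06 ± 0.17, adjusted p = 0.0070). Tmem38b, named above, passed the adjusted p of this comparison but not the fold limit (-0.94, adjusted p = 0.0185).

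**Figure D5:**
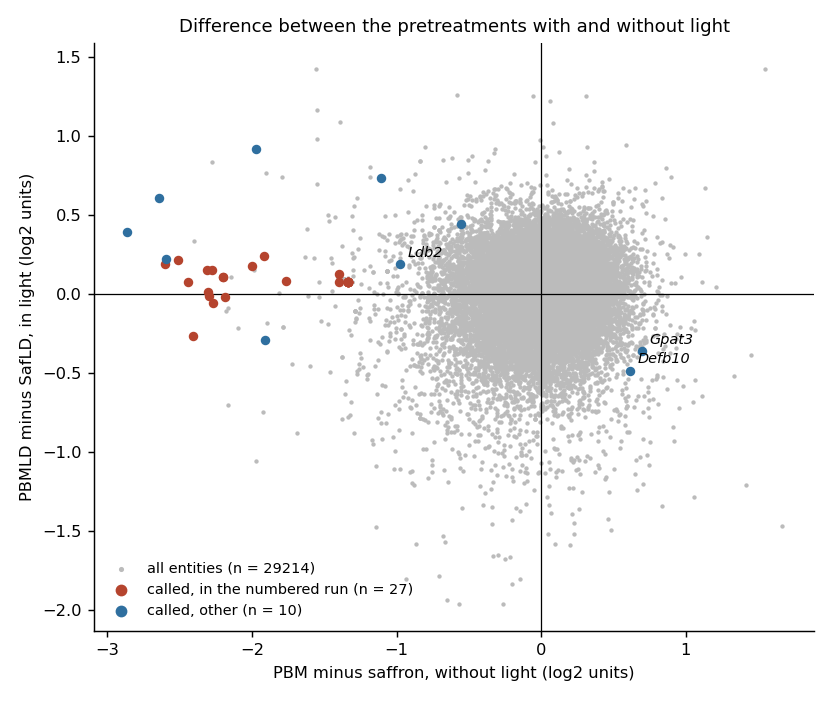
Each grey point is 1 of 29214 entities, with its PBM minus saffron difference without light on the x axis and its PBMLD minus SafLD difference in light on the y axis, both in log2 units; coloured points are the 37 entities called for the departure of one difference from the other. The 27 called entities of the numbered run lie between -2.60 and -1.34 on the x axis but between -0.27 and 0.24 on the y axis.

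Leaving out PBMLD 1 moved the counts of both comparisons. Between PBMLD and SafLD, 10 entities were then called, all lower in PBMLD, of which 3 carried a symbol: Slc28a2, a concentrative nucleoside transporter (-1.21, adjusted p = 0.0086), Pan3, a subunit of a poly(A)-shortening nuclease (-1.03, adjusted p = 0.041), and Zfp24 (-1.01, adjusted p = 0.0086). For Zfp24 PBMLD 1 was at 8.51 and the other PBMLD arrays at 7.75 and 7.97, against 8.79, 8.92 and 8.90 in SafLD. For the others the array left out lay within the range of SafLD: Slc28a2 was at 6.14, 5.22 and 4.82 in PBMLD and 6.38, 6.05 and 6.27 in SafLD, and Pan3 at 8.11, 7.08 and 7.42 against 8.08, 8.41 and 8.36. Without PBMLD 2, 1 unnamed entity was called, and without any of the other 4 arrays 0. In the comparison with and without light, 149 entities were higher and 79 lower without PBMLD 1.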

How the data were processed

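Rat retina was measured on 18 arrays of the Affymetrix Gene 1.0 ST type, and the labels put 3 into each of 6 groups. As deposited by the authors, a probe set has a log2 value for every array after RMA. Expression Console (1.1.2800.19935) is the tool named in the processing notes of the submitters, and a build was not given in the sources used here. Background correction and summarisation cannot be redone from these values, and the number of arrays limits the precision. Symbols came from the platform annotation (15310 probe sets with 1 symbol, 323 with several, 13581 with none). The brightest probe set stood for a gene. The fit used the lmFit and eBayes functions of limma (3.58.1, under R 4.3.3) over all 18 arrays, with 12 residual and 5.05 prior degrees of freedom, two-sided. Calls needed a Benjamini-Hochberg adjusted p below 0.05 over all probe sets and a fold above 2. The fit was tested on simulated data. Genes named by rule were called genes, the 10 per direction with the smallest p without overlap, the genes of the study's RT-PCR, and up to 4 members of each list with the largest difference; other examples from the lists were picked after their values were seen. Members and lists were chosen with earlier results of these data known. Per the study 4 animals made a group, 2 male and 2 female, with no sex given for an array; of 7 Y-linked genes 1 was measured. Replicate numbers did not pair the samples.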

Additional observations from a re-analysis of the deposited data

Results flagged for a closer look

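The difference between the pretreatments departed from that without light in 37 entities by the limma test of that difference, whose values are given above. The named ones were Ldb2 (1.16), Defb10 (-1.10) and Gpat3 (-1.06), each given as the difference in light minus the difference without light in log2 units. Defb10 and Gpat3 were dim, with levels between 3.97 and 5.51 on the arrays compared.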

How the results depend on the processing

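Between PBMLD and SafLD, 0 entities were called under each of the alternatives run except 2 kinds. The methods' t-test at unadjusted p, with the fold limit, gave 1 higher and 31 lower entities, and 0 after adjustment. Leaving out each of the 6 arrays in turn gave 0 to 10 lower and 0 higher. The replicate numbers were not taken as pairs. Over all pairs of groups the correlations of same-numbered arrays lay on both sides of 0. They were -0.21, -0.13 and -0.072 for PBMLD with SafLD. With 3 arrays per group they cannot exclude pairing. The replicate block left 0 calls in each direction here, and 33 higher and 2 lower in the comparison with and without light. The comparison with and without light, with 35 higher and 2 lower entities, gave 132 and 47 with array weights, 4 lower with median centring, 5 lower with only the groups compared, and 29 to 149 higher and 1 to 79 lower when each of the 12 arrays was left out, the highest without PBMLD 1. Leaving out the 1618 unidentified probe sets, an alternative chosen after seeing the data, gave 41 higher and 3 lower. The median over the light-raised entities, chosen anew each time, ran from -0.59 to -0.19 over the arrays left out, lowest in size without PBMLD 1, and that over the light-lowered ones from 0.12 to 0.44. The choice of entities moved the medians too. They were -0.32 (raised) and 0.14 (lowered) with no fold limit, and -0.45 and 0.20 without the unidentified probe sets. Under the adjusted t-test no entity was chosen by LD, so it gave no median, and the t-tests cannot be run for the comparison with and without light. Among the named genes Fgf2 (-0.74 to 0.070 over the arrays left out), Lcn2 (-1.69 to 0.20) and Timp1 (-1.73 to 0.029) changed sign, each without PBMLD 1, and Cxcl10 (-1.15 to 1.00) did so without PBMLD 1 and without SafLD 2 (0.011). The cause of these changes was not tested.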
